A study of Mus musculus with 6 samples.

Results

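Eomes is a T-box transcription factor, and the regions described here are distant Eomes sites in cultured mouse natural killer (NK) cells. They were regions that the deposited annotation called intergenic and placed more than 50 kb from the nearest annotated transcription start site (TSS), found in at least 2 of 3 chromatin immunoprecipitation experiments. There were 810 such regions among 20126 reproducible regions of any kind (4.02%). Intervals of the 3 deposited peak lists that shared 1 bp or more were merged. A merged region was called reproducible when it held intervals from 2 or 3 lists. Each region took the class, distance and gene of its row with the largest pileup. The members were selected on the peak calls themselves and on that pileup, and are the reproducible regions whose class was distal intergenic and whose distance exceeded 50000 bp. In 1 of the 810, another row of the same region carried a different class or a distance at or under 50000 bp.

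The immunoprecipitated (IP) samples were 3 Eomes libraries, and their reference was 3 input libraries of DNA that had not been immunoprecipitated. Every library came from splenic NK cells of C57BL/6 wild-type mice between 8 and 12 weeks old, purified from pooled splenocytes and grown for 4 days in IL-15 at 100 ng/mL, per the labels' protocols. The 3 experiments were separate, per the labels, and each gave 1 list with the IP already set against its own input. Peak lists carry no expression values, so the identity of the cells was not checked against marker genes, and cells grown in IL-15 may differ from NK cells in the spleen.

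Eomes binds DNA through a T-box domain that recognises short sequences around GGTGTG, and together with the related factor T-bet it directs the maturation of NK cells. Sites far from genes can act as enhancers, which reach promoters through looping of the chromatin. The nearest start site is a bookkeeping label for such a site and need not be its target. Each gene named below is therefore the gene the deposited annotation assigned, and for some members the neighbouring protein-coding genes of the RefSeq annotation are given too.

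No genome sequence was used here, but 30 members overlapped the 250 bases before a RefSeq transcription start, and their sequence could be read from the RefSeq promoter windows of GRCm38.p6, the assembly behind mm10. The sequences shown are the bases shared by the member and that window, read on the strand of the RefSeq gene. They were chosen because they are the 3 members with the highest mean fold among those sharing at least 100 bases, the 4 members whose shared bases held GGTGTG, and one at the start of a protein-coding gene. Capitals mark GGTGTG or its reverse complement CACACC. Gm32540 (chr8:10866278-10866521, minus strand), Gm46116 (chr9:61056683-61056932, plus strand), Gm40441 (chr12:72844429-72844612, minus strand), Gm5122 (chr9:61016819-61017068, plus strand), Gm31342 (chr15:67039349-67039592, plus strand), Gm41231 (chr14:100285499-100285722, plus strand) and Gm35551 (chr17:84026116-84026269, minus strand) are long noncoding RNA genes. Pak1 (chr7:97788291-97788540, plus strand) encodes a kinase of the cytoskeleton.
Gm32540: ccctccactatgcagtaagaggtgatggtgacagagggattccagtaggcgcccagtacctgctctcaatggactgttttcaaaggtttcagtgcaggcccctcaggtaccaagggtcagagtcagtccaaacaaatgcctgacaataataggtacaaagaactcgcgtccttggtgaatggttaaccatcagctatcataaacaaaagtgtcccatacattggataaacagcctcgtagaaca
Gm46116: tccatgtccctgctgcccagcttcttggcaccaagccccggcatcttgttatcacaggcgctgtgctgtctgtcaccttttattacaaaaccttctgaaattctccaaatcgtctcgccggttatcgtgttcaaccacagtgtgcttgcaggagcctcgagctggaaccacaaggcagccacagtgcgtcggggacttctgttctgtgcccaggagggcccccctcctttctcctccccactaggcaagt
Gm40441: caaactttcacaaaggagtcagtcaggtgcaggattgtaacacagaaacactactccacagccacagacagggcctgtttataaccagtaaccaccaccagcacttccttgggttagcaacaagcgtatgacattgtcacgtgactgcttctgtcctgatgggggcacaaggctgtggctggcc
Gm5122: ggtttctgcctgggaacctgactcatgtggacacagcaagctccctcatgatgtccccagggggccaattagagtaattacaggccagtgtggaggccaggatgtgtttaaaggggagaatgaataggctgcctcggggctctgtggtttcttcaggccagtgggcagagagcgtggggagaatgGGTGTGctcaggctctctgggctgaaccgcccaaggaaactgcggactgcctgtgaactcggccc
Gm31342: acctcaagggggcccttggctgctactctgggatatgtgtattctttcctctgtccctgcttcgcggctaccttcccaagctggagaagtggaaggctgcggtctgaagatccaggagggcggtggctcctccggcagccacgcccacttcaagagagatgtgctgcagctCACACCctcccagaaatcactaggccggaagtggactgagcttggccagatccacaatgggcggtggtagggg
Gm41231: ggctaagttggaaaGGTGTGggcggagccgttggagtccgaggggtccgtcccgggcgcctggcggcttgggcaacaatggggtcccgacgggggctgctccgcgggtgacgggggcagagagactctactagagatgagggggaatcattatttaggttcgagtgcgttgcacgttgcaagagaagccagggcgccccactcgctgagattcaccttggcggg
Gm35551: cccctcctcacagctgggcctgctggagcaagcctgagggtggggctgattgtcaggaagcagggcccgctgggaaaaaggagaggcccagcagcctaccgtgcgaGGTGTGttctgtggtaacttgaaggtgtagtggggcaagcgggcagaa
Pak1: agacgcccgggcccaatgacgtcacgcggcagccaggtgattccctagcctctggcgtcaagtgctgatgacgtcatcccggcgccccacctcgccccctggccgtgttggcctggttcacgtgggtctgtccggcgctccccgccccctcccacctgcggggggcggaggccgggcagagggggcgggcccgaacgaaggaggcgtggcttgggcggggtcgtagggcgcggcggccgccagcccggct

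The member over the Gm32540 start was assigned to the pseudogene Rps16-ps3, 56832 bp away, and had folds of 12.6, 8.57 and 14.0 in experiments 1, 2 and 3. Fold here is the enrichment over background printed for each peak in the authors' lists, a linear ratio. The member over the Gm46116 start had folds of 9.32, 12.4 and 12.8, and the member over the Gm40441 start had 7.499, 8.14 and 16.8. None of these 3 strongest sequences held GGTGTG in the bases shown. The Gm5122 member had folds of 5.67, 12.2 and 10.4, with GGTGTG 209.5 bp from the highest summit. In the Gm35551 member, found in experiments 1 and 3 with folds of 3.54 and 3.11, the motif was 37.5 bp from the summit. It was 91.5 bp from the summit in the Gm41231 member (experiments 1 and 3, 3.91 and 3.90) and 328.5 bp from it in the Gm31342 member (6.39, 3.59 and 7.69). The Pak1 member was found in experiments 1 and 2 with folds of 4.97 and 5.17, and the deposited annotation had assigned it to Aqp11 at -50100 bp.

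The motif was searched as GGTGTG on either strand in the 250 bases before each RefSeq start. It was present in 6 of the 32 windows that members overlapped (18.8%) and in 16.3% of all 32817 distinct windows. A longer form, AGGTGTGA, was in none of the 32 windows and in 1.12% of all windows. Counting the windows that held a list's own summit, GGTGTG was present in 2 of 9, 2 of 11 and 3 of 11 windows of members in experiments 1, 2 and 3. In intergenic regions within 50 kb it was present in 7 of 34, 8 of 34 and 10 of 38. The share in members minus the share in regions within 50 kb was -0.92 ± 3.85 percentage points (SD, n = 3; two-sided exact permutation p = 1). GC content in the same windows averaged 58.8%, 60.2% and 59.4% for members and 58.4%, 56.5% and 59.9% for regions within 50 kb, a difference of 1.23 ± 2.19 percentage points (SD, n = 3, exact permutation p = 0.75). With 3 experiments this test cannot go below 0.25. Neither difference exceeded the spread between experiments, and the signs turned when experiment 2 was left out, with 1.30 points for the motif and -0.0054 for GC. Windows overlapped 30 members (3.70%), and the differences used only the 9, 11 and 11 windows that held a summit. The lists held 647, 583 and 740 members in experiments 1, 2 and 3. Nothing here bears on the sequence of the remaining members.

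A smaller share of regions beyond 50 kb than of any other class was found in 2 or 3 lists, and the members had median folds near those of intergenic regions within 50 kb and of promoters. These values come from the peak calls that chose the members, so they are a description with no test. Of 7211 merged intergenic regions beyond 50 kb, 810 were in at least 2 lists (11.2%, 95% Wilson interval 10.5 to 12.0%, counting error only). The share was 17.6% for intergenic regions within 50 kb, 14.0% for exons, UTRs and downstream regions, 15.8% for introns and 38.1% for promoters. It fell with distance, being 13.2% between 50 and 100 kb, 10.7% between 100 and 200 kb, 7.14% between 200 and 500 kb and 5.16% beyond 500 kb. Of the 810 members, 350 were in all 3 lists (43.2%, interval 39.8 to 46.6%), against 46.3% of 2823 intergenic regions within 50 kb, 55.4% of 11896 promoter regions and 41.0% of 982 exon, UTR or downstream regions. The remaining 460 comprised 227 shared by experiments 1 and 3, 163 by experiments 2 and 3, and 70 by experiments 1 and 2.

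**Figure D1:**
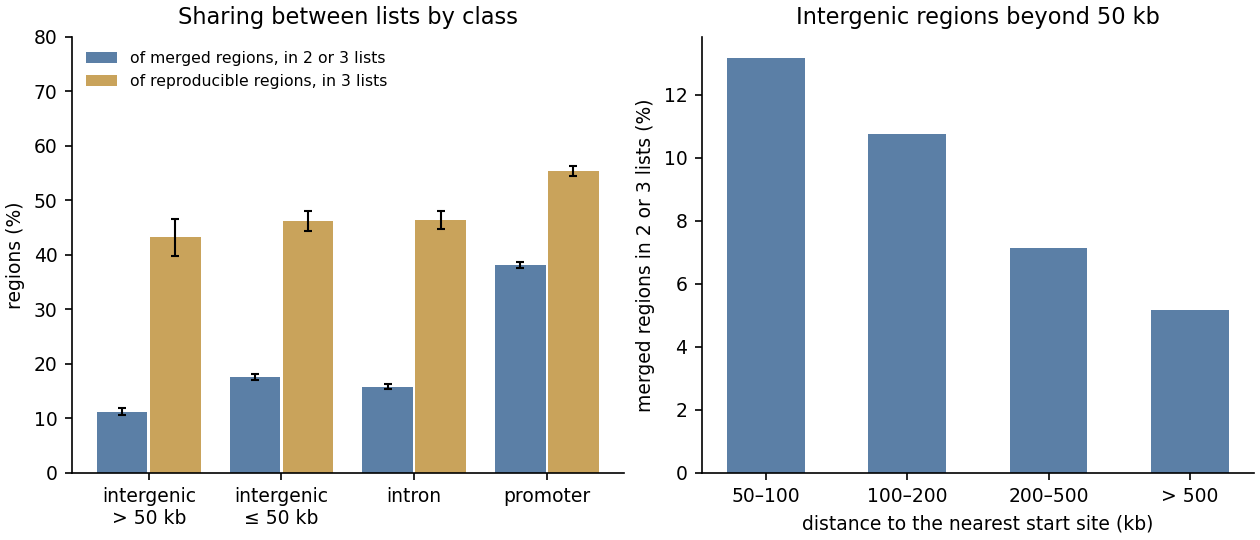
Sharing of Eomes regions between the 3 lists. Left, the percentage of merged regions found in 2 or 3 lists and the percentage of reproducible regions found in 3 lists, by class, with 95% Wilson intervals as error bars; intergenic regions beyond 50 kb have the lowest values of the 4 classes shown (11.2% and 43.2%). Right, the percentage of merged regions beyond 50 kb found in 2 or 3 lists, by distance to the nearest start site, which declines from 13.2% to 5.16%.

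The median fold of the members was 4.88, 5.10 and 4.97 in experiments 1, 2 and 3. It was 4.64, 5.17 and 5.10 in intergenic regions within 50 kb and 4.55, 5.17 and 4.96 in promoter regions. Over the experiments these medians averaged 4.98 ± 0.11 for members, 4.97 ± 0.29 for intergenic regions within 50 kb and 4.89 ± 0.31 for promoters (SD, n = 3 each), so these 3 averages differed by less than the spread between experiments. Regions in exons, UTRs or downstream of genes averaged 4.64 ± 0.12, below the members in each experiment. The pileup, a whole number read here as IP fragments at the summit, had medians of 16, 13 and 21 in members and 15, 13 and 20 in promoter regions. Members were narrower, with a median merged width of 316 bp against 342 bp within 50 kb and 454 bp at promoters. This width spans the intervals of every list in a region. The share of regions in 3 lists also differed, at 43.2%, 46.3% and 55.4% in the same order, and its part in the width was not tested. Members in all 3 lists had median folds of 6.08, 6.05 and 7.15, and those in 2 lists 4.26, 4.31 and 4.204. Across the 350 members in all 3 lists, Spearman's rho of fold was 0.51 between experiments 1 and 2, 0.63 between 1 and 3, and 0.57 between 2 and 3. These are correlations across regions, which are not replicates.

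The distance to the assigned start had a median of 87.7 kb and quartiles of 62.5 and 143.5 kb. There were 474 members between 50 and 100 kb, 242 between 100 and 200 kb, 86 between 200 and 500 kb and 8 beyond 500 kb. Median fold was 4.97, 5.10 and 5.10 in the 3 experiments between 50 and 100 kb, 4.72, 5.02 and 4.84 between 100 and 200 kb, 5.34, 5.38 and 4.90 between 200 and 500 kb, and 3.37, 4.31 and 3.603 beyond 500 kb. It had no steady order with distance up to 500 kb and was lowest in the few regions beyond. None of the 8 members beyond 500 kb was in all 3 lists. The most distant lay 811512 bp upstream of Cntn5, which encodes a neuronal adhesion protein, with folds of 4.31 and 4.69 in experiments 2 and 3. The next was assigned to n-R5s209 at -720110 bp, with 4.62 and 4.74 in experiments 1 and 2. Just inside the threshold, the member assigned to Gm22992 at -50028 bp had folds of 3.73 and 2.89 in experiments 1 and 3. Just outside it, a region on an unplaced contig at 49963 bp had 2.49, 2.45 and 3.35. Members lay upstream of the assigned gene in 437 cases (53.95%, Wilson interval 50.5 to 57.4%), against 62.8% of intergenic regions within 50 kb.

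Members were spread unevenly over chromosomes. Chromosomes 13 and 12 held 79 and 78 of them, which were 10.3% and 9.70% of all reproducible regions on those chromosomes. On chromosome 11, which had 1736 reproducible regions, 10 were members (0.576%), and on the X chromosome there were 2 of 143.

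The leading members lay in gaps beside genes of several functions, with mean folds of 14.97 or more. The 12 with the highest mean rank of fold among regions in all 3 lists were named by rule, so their values are a description. First came a region 98282 bp upstream of Rab3gap2, which encodes a subunit of a regulator of the vesicle GTPase Rab3 (chr1:185105396-185105920). It had pileups of 69, 75 and 110 and folds of 23.6, 18.2 and 22.2, a mean of 21.3 ± 2.80 (SD, n = 3). It lies between the RefSeq genes Mark1 and Rab3gap2, at about 105.4 and 98.2 kb. A region 53230 bp upstream of Pag1, which encodes a membrane adaptor that recruits the kinase Csk, had pileups of 44, 47 and 95 and folds of 13.0, 18.9 and 28.8 (20.2 ± 7.99). Fold was highest in experiment 3 at Pag1 and in experiment 1 at Rab3gap2.

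Runx3, which encodes a Runt factor of cytotoxic lymphocytes, had strong members on both sides. The region assigned to Runx3 itself (chr4:135206039-135206633) lay 51624 bp downstream of the Runx3 start that the annotation used. It was 28.0 kb past the end of the gene body and 7.34 kb from Clic4. Its pileups were 62, 74 and 116 and its folds 10.6, 22.2 and 22.7. On the upstream side, a region assigned to the noncoding gene Gm16225 (chr4:135067668-135068303) lay 52.3 kb from the Runx3 gene body. Its pileups were 72, 52 and 114 and its folds 16.4, 17.7 and 26.2. The leading promoter region of Runx3 (chr4:135119822-135120713), which covers a different start of the gene, had 16.2, 18.2 and 18.8. These values lay between those of the distant sites in experiments 1 and 2 and below both in experiment 3. Tle4, which encodes a Groucho corepressor, had a member 245030 bp downstream of its start, with folds of 18.8, 12.5 and 16.4.

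The other leading members had no protein-coding gene within 30 kb. The region assigned to Eif3h, a translation initiation subunit, at 134131 bp had folds of 17.0, 22.0 and 17.3, and the gap it lies in is bounded by Trps1. The region 317514 bp upstream of Prickle1 had 19.4, 17.3 and 15.4. Gm26397 had a member with 14.2, 16.7 and 20.7 in the gap between Irf2bp2, a corepressor gene, and Tomm20. Gm24942 had one with 15.8, 15.7 and 17.4 between Nrp2 and Ino80d. The Gm10040 region lay 85.2 kb from 1110032F04Rik and 85.4 kb from Il12a, which encodes a subunit of IL-12, with 17.1, 13.5 and 14.3. The Gm14006 region had 11.5, 14.6 and 18.8 and lay 337 kb from Bcl2l11, the gene of Bim, an inducer of apoptosis, in a gap that ends at Spdye4c.

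**Figure D2:**
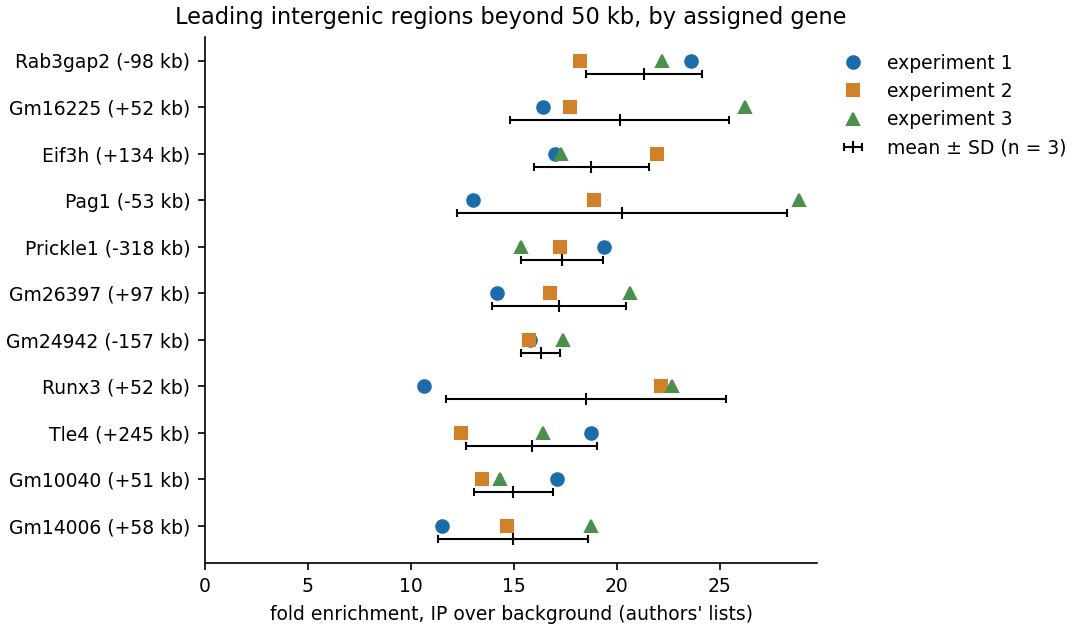
Fold enrichment of 11 of the 12 leading regions beyond 50 kb in each experiment (symbols) with the mean ± SD over 3 experiments (bars); labels give the assigned gene and the signed distance to its start, with negative values upstream. The Rab3gap2 region has the highest mean, 21.3, and the Runx3 region ranges from 10.6 in experiment 1 to 22.7 in experiment 3.

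Among lists of genes, factors of NK and innate lymphoid cells carried most of the distant regions that fell on listed genes. Of 21900 protein-coding genes, 1.25% had at least 1 member assigned. Of 53 transcription factors of NK and innate lymphoid cells in the gene table, 10 had a member (18.9%). They were Id2, Nfil3, Runx1, Runx3, Gata3, Irf2, Lef1, Bcl11b, Foxo1 and Bcl6. Together they had 41 members, of which 22 were assigned to Id2 alone. Of the 1332 protein-coding genes with a region beyond 50 kb in any list, 20.6% had a member, and of the 19 factors with such a region, 10 did. Intergenic regions within 50 kb were assigned to 16 of the 53 factors, against 5.71% of all protein-coding genes. No enrichment test was made, and the list was chosen with earlier results of these data known.

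Id2 encodes an inhibitor of E proteins that NK cells need, and it had more members than any other gene, 22, of which 10 were in all 3 lists. They lay from 68662 to 266682 bp upstream of its start. The member at -266682 bp (chr12:25362774-25363126) had pileups of 36, 31 and 58 and folds of 12.4, 12.4 and 14.5 in experiments 1, 2 and 3. The member at -143870 bp had folds of 14.9, 11.6 and 11.7, and the one at -112823 bp had 12.6, 11.1 and 14.5. All 3 of these exceeded 11 in every experiment, whereas the Id2 members in 2 lists ranged from 2.60 to 7.51. The leading promoter-class region of Id2, at -2094 bp, had 19.1, 20.5 and 16.0, above each distant member in each experiment. When an experiment was left out and both others were required, the count for Id2 was 17 without experiment 1, 14 without experiment 2 and 11 without experiment 3.

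**Figure D3:**
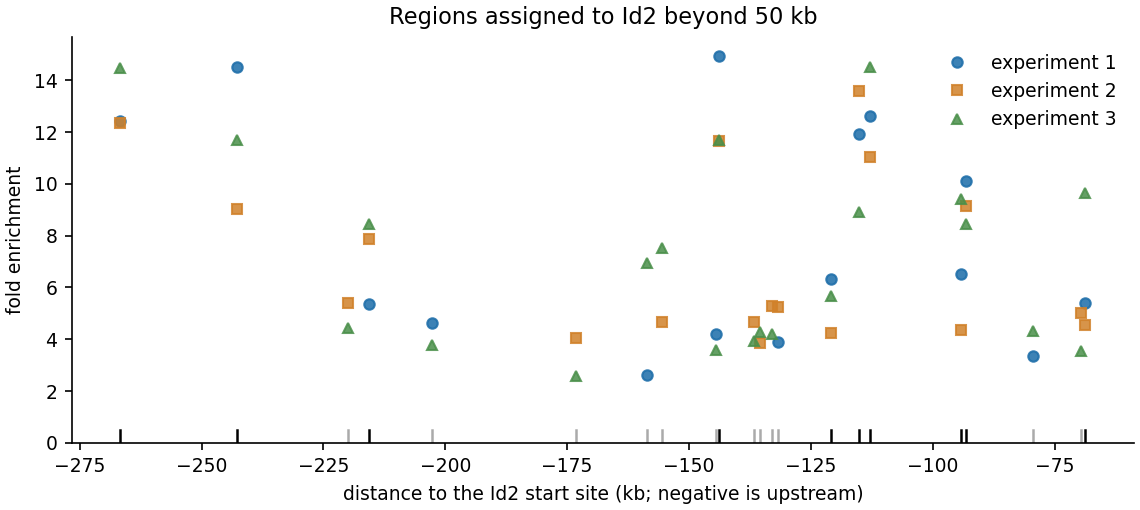
Fold enrichment of the 22 regions assigned to Id2 beyond 50 kb against their distance from its start site, with a symbol for each experiment that called the region; ticks on the axis are black for regions in 3 lists and grey for regions in 2. Regions with folds above 8 in every experiment occur from -93173 to -266682 bp.

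Nfil3, which encodes a bZIP factor that NK cell development requires, had 4 members between 76102 and 84599 bp upstream. The strongest had folds of 10.8 and 10.5 in experiments 1 and 3 and no peak in experiment 2, and a neighbouring one had 6.32, 5.23 and 8.67. Gata3, a zinc finger factor of T and innate lymphoid cells, had 1 member 71723 bp downstream of its start, with 14.8, 8.71 and 13.4. Its leading promoter region was found in experiments 1 and 3 only, with 6.95 and 3.50. Irf2, an interferon regulatory factor, had 3 members, all within 11.73 kb of the end of the RefSeq gene body, and the one in all 3 lists had 5.20, 6.80 and 5.06. The distance counts from the start, so a region just past the end of a long gene passes 50 kb.

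Bcl6, a repressor, had 3 members between 146971 and 176694 bp upstream, towards Lpp, and the leading one had 5.78, 3.67 and 9.64. Runx1, a Runt factor of early blood development, had 2 members, and the one in all 3 lists, at -106894 bp, had 4.80, 5.38 and 6.45 against 13.4, 15.2 and 12.8 at its leading promoter region. Lef1, a partner of beta-catenin, had 4.50, 4.22 and 4.90 at -52871 bp, and Foxo1, a factor of quiescence, 5.49, 3.37 and 3.32 at -68670 bp. The Bcl11b member at -51056 bp was found in experiments 1 and 2 only, with 3.18 and 4.74.

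Among genes of NK effector function, none of 29 receptor and adaptor genes had a region beyond 50 kb in any list. Of 16 cytokine and chemokine genes and of 21 genes of the cytotoxic machinery, 2 each had one. Over all protein-coding genes, 1332 of 21900 had one, so such small counts are not read as a result about these lists. For members the share over all protein-coding genes was 1.25%, so counts of 0 or 1 in lists of this size are close to the background. None of 29 NK receptor and adaptor genes had a member, nor did any of 16 cytokine and chemokine genes. Intergenic regions within 50 kb were assigned to 7 and 8 genes of these lists, and to 16 of the 53 transcription factors above. The share over all protein-coding genes was 5.71%. Of 21 genes of the cytotoxic machinery, Lyst, which encodes a regulator of lysosome and granule size, had a member at -60788 bp with 11.6, 11.9 and 14.3, although Nid1, at 16.8 kb, was nearer to it. Of 30 cytokine receptor and signalling genes, Tgfbr2, a receptor chain for TGF-beta, had a member at -190859 bp with 5.27, 5.98 and 9.82. Smad3, which carries TGF-beta signals to the nucleus, had 2, each in 2 lists. Of 26 migration and adhesion genes, Cd44, a hyaluronan receptor, had 1 at -84801 bp, with 3.91 and 2.79 in experiments 1 and 3, and Pdhx, at 34.3 kb, was nearer to it.

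None of the 30 listed cell cycle and survival genes had a member, no T cell gene among 19, no B cell gene among 15, no myeloid gene among 17 and no mesoderm or endoderm gene among 18. The list did not hold Ccnd1, the gene of cyclin D1, which had 4 members and is named here after its values were seen. The strongest, at -171672 bp, had 13.4, 15.7 and 10.4. A region beyond 50 kb in any list was assigned to 3 of 30 cell cycle genes, 2 of 19 T cell genes and 3 of 15 B cell genes. None of the myeloid, mesoderm or endoderm genes had one. The count over all protein-coding genes was 1332 of 21900, so these small counts are not read as a result about the lists. The liver and neuronal list had 1 of 20, Cyp3a11, a liver cytochrome gene, at -51245 bp with 5.60 and 5.10 in experiments 2 and 3. Of 30 ribosomal protein genes, Rplp1 alone had members, and it had 11.

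Rplp1, which encodes an acidic protein of the ribosome's large subunit, had the most members after Id2. Its 11 members lay 55126 to 250078 bp downstream of its start, in the gap between Rplp1 and Tle3, which encodes a Groucho corepressor. The leading one (chr9:61664069-61664460) had pileups of 44, 23 and 65 and folds of 13.8, 8.04 and 14.7. It lay 245.6 kb from the Tle3 gene body and 248.8 kb from that of Rplp1. Next to it, a region at 248007 bp had 8.51, 9.33 and 16.6. On the other side of Tle3, towards Uaca, 7 further members were assigned to Gm9869 and 5 to Gm10655. The strongest Gm9869 members had 9.32, 12.4 and 12.8 over the Gm46116 start printed above, and 7.30, 14.8 and 12.1 at -160283 bp.

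Counted by the gap between neighbouring RefSeq protein-coding genes, 768 members fell into 429 gaps with a median size of 318.7 kb. The ranking of gaps was made after the values were seen. The gap between Id2 and Rnf144a held 25 members, that between Tle3 and Rplp1 14, and that between Uaca and Tle3 12. The gap of Zfp36l2, which encodes a factor of mRNA decay, towards Haao held 11, of which 8 were in all 3 lists. So did the gap between Irf2bp2 and Tomm20. There, 8 members were assigned to Gm26397, and after the leading one the next strongest had 10.7, 8.20 and 14.0. In 285 gaps there was 1 member, and 21 gaps with 5 or more held 174 members (21.5% of all 810). At a spacing of 12.5 kb or less, 535 members (66.0%) stood alone and the largest run, upstream of Id2, had 11.

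**Figure D4:**
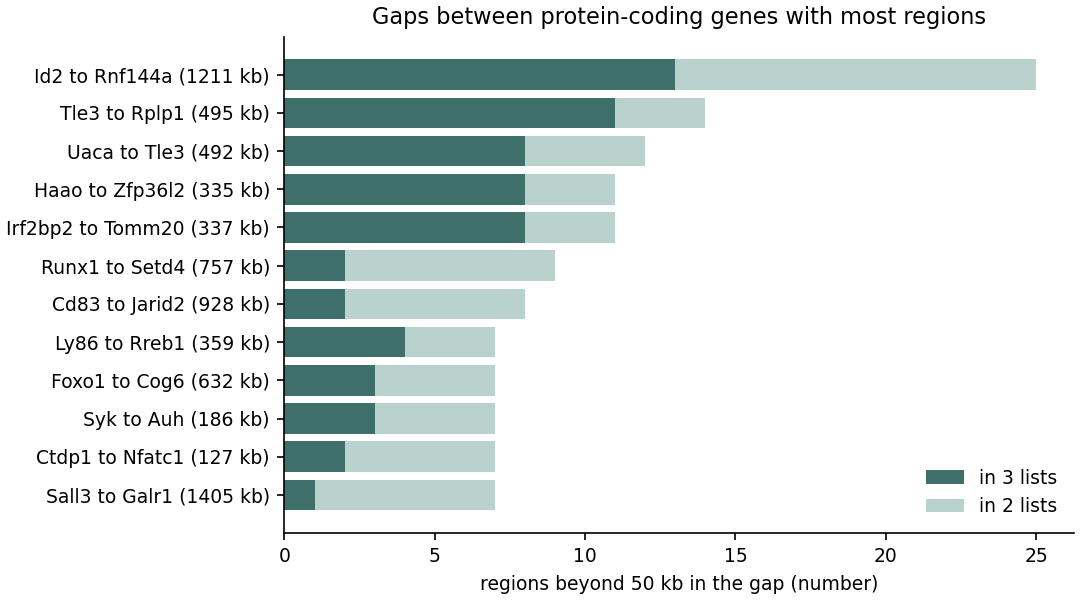
The 12 gaps between neighbouring RefSeq protein-coding genes that held most regions beyond 50 kb, with gap size in brackets; dark bars count regions in 3 lists and light bars those in 2. The gap from Id2 to Rnf144a holds 25, and the gaps on either side of Tle3 hold 14 and 12.

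A second annotation placed some of these regions inside genes, in a share close to that of intergenic regions within 50 kb. Of 805 members on chromosomes of the RefSeq table, 226 (28.1%) overlapped a RefSeq gene body, against 26.6% of 2790 intergenic regions within 50 kb. Of the 226, 182 overlapped a long noncoding RNA gene and 36 a protein-coding gene. Overlap with a protein-coding gene was less frequent in members, at 4.47% against 8.06% within 50 kb. Per experiment, 24.0%, 23.0% and 23.0% of members lay in a long noncoding RNA gene, against 16.9%, 17.4% and 16.9% of intergenic regions within 50 kb. The means were 23.3 ± 0.579% and 17.0 ± 0.300%, and the difference was 6.28 ± 0.770 percentage points (SD, n = 3), higher for members in 3 of 3 experiments. The two-sided exact permutation p was 0.25, the smallest that 3 pairs allow, and the experiments share regions, so the pairs are not independent. Regions in the same noncoding gene were counted separately. The 8 members assigned to Gm26397, for example, all lay in the noncoding gene Gm31718. The median distance from a member to the nearest RefSeq protein-coding gene body was 79.5 kb, against 13.2 kb for intergenic regions within 50 kb. Of the members, 600 (74.5%) were more than 50 kb away. The classes were themselves split by distance to a start site, so this contrast largely follows from the selection.

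Besides Pak1, members covered the bases before RefSeq starts of Sgms2, which encodes a sphingomyelin synthase, and Sipa1l2, which encodes a relative of Rap regulators. The Sgms2 member had folds of 5.17 and 3.06 in experiments 2 and 3 and had been assigned to Papss1 at -73844 bp. The Sipa1l2 member had 3.84 and 4.56 in the same experiments and had been assigned to another start of Sipa1l2, 77329 bp away. The other 27 such members were at starts of long noncoding RNA genes. In all, 30 members (3.70%) overlapped these bases, close to the share of intergenic regions within 50 kb (99 regions, 3.51%). No member overlapped a RefSeq microRNA hairpin, and no count for other classes is given beside it.

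The 810 members were assigned to 534 genes, of which 395 had 1 member and 54 had 3 or more. RefSeq listed the assigned gene as protein-coding for 447 members (55.2%) and did not match it for 168 (20.7%). Of the 274 protein-coding genes with a member, 154 also had a reproducible promoter region (56.2%, Wilson interval 50.3 to 62.0%). This compares with 58.2% of 1250 genes assigned an intergenic region within 50 kb and 36.5% of all protein-coding genes. Within single lists, a promoter peak accompanied 57.3%, 59.9% and 64.6% of the genes with a member and 39.3%, 41.0% and 47.6% of all protein-coding genes. The share fell to 44.8% when members and promoters had to be in all 3 lists, where promoter regions were fewer too, and to 44.2% without experiment 3. The genes with most members were Id2, Rplp1, Gm26397, Gm9869 and Ctdp1, followed by 6 genes with 6 each: Gm23905, Gm26669, Sik1, Tab2, Trib1 and an unnamed Ensembl gene (ENSMUSG00000096529). Ctdp1, which encodes a phosphatase of RNA polymerase II, had 7 in the gap towards Nfatc1, and its leading member had folds of 7.23, 4.73 and 6.35. The 6 members of the unnamed gene lay within 6.05 kb on chromosome 12, and no fold among them exceeded 5.22.

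A few members had a high background or differed widely between experiments. The background of a peak was estimated by dividing the pileup plus 1 by the fold and subtracting 1. This assumes that 1 was added to both terms of the fold, and the caller's settings were not given to check it. The lowest background per list was 1.82, 1.32 and 2.33 fragments in experiments 1, 2 and 3. Of the members, 44 (5.43%) exceeded 3 times the lowest value in at least 1 list, against 6.70% of intergenic regions within 50 kb. The 5 members on an unplaced contig (JH584304) had pileups of 87 to 138, 70 to 115 and 102 to 165 in experiments 1, 2 and 3, but folds of 1.81 to 4.43, 2.89 to 4.17 and 1.77 to 2.84. Their backgrounds were at least 11.5 times the lowest of their list. Most of the members assigned to ENSMUSG00000096529 also exceeded 3 times the lowest value in at least 1 list. The one at chr12:20232693-20233872 had 4.60, 3.07 and 4.13 times the lowest in experiments 1, 2 and 3. Without intervals of high background, 791 members remained.

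**Figure D5:**
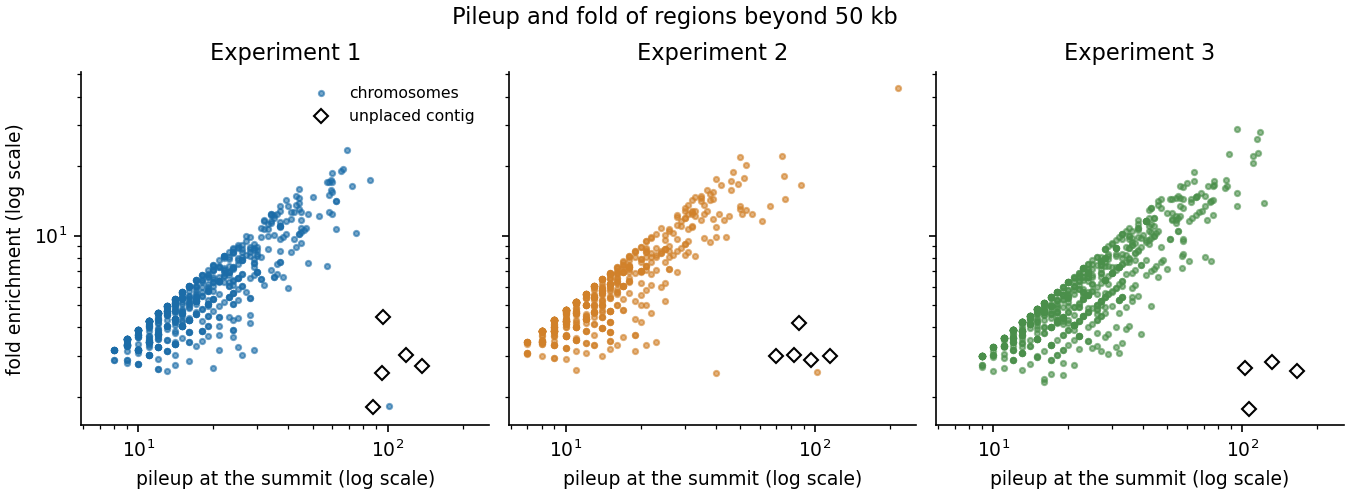
Pileup at the summit against fold enrichment for the regions beyond 50 kb in each experiment, both on log scales; open diamonds are the members on an unplaced contig. The diamonds combine high pileups with folds of 1.77 to 4.43, and the point at the upper right of experiment 2 is the region near Gm23186 with a fold of 43.4.

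Over the 350 members in all 3 lists, the highest fold was a median of 1.22 times the middle one, and it exceeded 2 times the middle one in 10. The widest spread was at a region assigned to Gm23186 on chromosome 17 (4626051 to 4626708). There the pileups were 57, 215 and 48 and the folds 7.36, 43.4 and 7.84, so the highest value of any member came from experiment 2 alone. A region assigned to Gm24255 on chromosome 11 was similar, with folds of 3.45, 16.6 and 3.00.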

How the data were processed

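Chromatin immunoprecipitation of Eomes was set against input in 3 experiments, each giving 1 deposited peak list, so peaks were called per experiment. The submitters' processing notes name the build mm10, Novoalign (an aligner) and ChIPseeker (peak annotation). For the peak caller, name and settings were not given in the sources used here. Per the file headers, each peak carries a pileup signal, a fold enrichment (a ratio of IP to background), and deposited −log10 p-values and −log10 q-values, all made by the authors. Read depth is not given; the smallest pileups were 8, 7 and 9, so weaker sites were not detectable. The lists held 37456, 33841 and 46329 distinct intervals, and merging gave 84399 regions. Merging was checked against bedtools 2.31.1 and tested on simulated data. In each list the row with the largest pileup stood for a region. Starts may be shifted by 1 bp, since the length column exceeded the interval by 1 bp in 100% of rows.

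RefSeq genes and promoter windows (300 bases, of which the 250 before the start were used) were those of GRCm38.p6. Matching of genes used the symbol and, for gene types, synonyms on the same chromosome. Named regions were the 12 in all 3 lists with the highest mean percentile of fold, members assigned to genes of 13 lists, the 6 genes with most members (the last of them tied with 5 others), the 2 most distant members and those beside the threshold; 1 of the 12 is not reported here. The members and lists were chosen with earlier results of these data known. Comparisons over experiments used a two-sided exact sign-flip permutation test (Python 3.11.15, SciPy 1.17.1 for Wilson intervals). Windows centred on summits, flanking windows and repeat content need a genome and were not analysed here; RefSeq promoter windows took their place, and the long noncoding RNA comparison was added after the data were seen. Alternatives covered the overlap, the number of lists, the q-value, the annotating row, the distance, high background and leaving out each experiment.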

Additional observations from a re-analysis of the deposited data

How the results depend on the processing

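Leaving out an experiment and requiring both others gave 417 to 577 members, median folds of 5.07 to 5.40 (experiment 1), 5.17 to 5.63 (experiment 2) and 5.40 to 5.57 (experiment 3), and a promoter region at 44.2% to 51.02% of assigned protein-coding genes. The share in long noncoding RNA genes, members minus regions within 50 kb, ran from 5.85 to 6.60 points, the motif difference from -2.20 to 1.30 and the GC difference from -0.0054 to 2.09. Requiring 3 of 3 lists left 350 members with median folds of 6.08, 6.05 and 7.15 and promoter regions at 44.8%, by construction from fewer regions. At a −log10 q-value of 2 or more, 719 members had median folds of 5.10 and 5.33 in experiments 1 and 3. Beyond 100 kb there were 336, with 39.0% in 3 lists and medians of 4.72 and 4.82 in experiments 1 and 3. With any window overlapping a region, an alternative chosen after seeing the data, the motif and GC differences turned to 3.58 and -0.67 points; the cause was not tested. Merging at 50 bp, annotation by the largest −log10 q-value and removal of high background gave 800, 810 and 791 members. The longer motif gave no value because no summit window held it, and summit-centred windows were not run. Between IP and input, no paired analysis was possible because the inputs have no values of their own in the lists, which give enrichment over background only; the comparisons between region classes were paired within experiments.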

Other observations

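Besides the gaps already described, 6 gaps between RefSeq protein-coding genes held 7 or more members and are listed here after their values were seen. The gap from Runx1 to Setd4 (757.4 kb) held 9, of which 2 were in all 3 lists, with a leading mean fold of 7.75. The gap from Cd83, which encodes a surface protein of activated immune cells, to Jarid2 (927.6 kb) held 8, of which 2 were in all 3 lists, with a leading mean fold of 8.66. Each of the others held 7. The gap from Ly86 to Rreb1 (359.3 kb) had 4 in all 3 lists and a leading mean fold of 15.2. The gap from Foxo1 to Cog6 (632.0 kb) had 3 in all 3 lists and a leading mean fold of 10.7. The gap from Syk, which encodes a kinase of immune receptors, to Auh (186.3 kb) had 3 in all 3 lists and a leading mean fold of 5.53. The gap from Sall3 to Galr1 (1405 kb) had 1 in all 3 lists and a leading mean fold of 8.10.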
